A study of Mus musculus with 6 samples.

Results

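The amino acid transporters described here are the genes of the solute carrier families Slc1, Slc3, Slc6, Slc7 and Slc38. They were chosen by name from the deposited gene table, without the cystine exchanger Slc7a11 and without pseudogenes. The rule found 53 of 31265 genes, of which 19 reached a mean of at least 1 FPKM (fragments per kilobase of transcript, scaled to library size) over the 6 libraries. One of the 53, Slc7a6os, is named for lying opposite Slc7a6 and encodes no transporter, which leaves 52 transporters, 18 of them at 1 FPKM or more. The names were not chosen by measured values.

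The cells were mouse embryonic stem cells of the line E14Tg2a, labelled wild type, that carried the Grx1-roGFP2 sensor of the glutathione redox state in the nucleus. They were grown as embryoid bodies, aggregates in which the early embryonic lineages form, in serum medium without 2i and LIF. Per the labels' protocols that medium kept the added glutamine, non-essential amino acids and beta-mercaptoethanol of the stem cell medium. On day 5 the sensor's ratio was used to sort live cells from 3 populations, A, B and C, separately. The oxidized end, 10% of the cells, and the reduced end, again 10%, gave 3 oxidized and 3 reduced poly(A) RNA libraries. The sort takes both ends of 1 distribution in each population, and cells in between were not measured. The labels do not tell if A, B and C were separate clones, cultures or days, and p-values therefore reflect only their spread, which may be technical.

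Amino acids cross the plasma membrane through carriers with overlapping substrates. Exchangers such as Slc1a5 and the Slc7a5-Slc3a2 pair swap one amino acid for another, while sodium-coupled carriers such as those of the Slc38 family accumulate them in the cell. Light chains of the Slc7 family need a heavy chain, Slc3a2 (CD98) or Slc3a1, to reach the membrane. Several of these genes are known targets of ATF4, the transcription factor that is translated when amino acids run short, and neutral exchangers also carry cysteine or serine, from which glutathione is made.

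Estimated depth was 1.18e+07 to 1.79e+07 fragments per library, lowest in both libraries of population C. This estimate is rough, since only 21.2% to 23.8% of low values lay within 2% of whole multiples of the step it was read from. The oxidized libraries A and B stood apart: the 2 table rows under 1 gene name, 1 of them annotated as ribosomal RNA in GENCODE vM21, summed to 1798 and 2357 FPKM there, against 41528 to 52117 FPKM in the others, and mitochondrially encoded mRNAs summed to 7348 and 5160 FPKM against 2324 to 3917. The part of that difference in the values below was not tested. Pluripotency markers (8 genes) summed to 218 to 352 FPKM in oxidized and 397 to 561 FPKM in reduced libraries. Of the 7 tested, 6 had negative differences and Tdgf1 was called lower, while Nanog was above its reduced libraries in oxidized A and B (44.3 and 49.0 against 18.2 to 27.2 FPKM) and below them in oxidized C (11.5 FPKM). Visceral endoderm markers (11 genes) summed to 46.8 to 60.8 against 22.2 to 29.9 FPKM, and mesenchyme markers (6 genes) to 114 to 153 against 53.9 to 76.4 FPKM. All 6 mesenchyme markers had positive differences, and Col3a1 and Fbln1 were called higher (1.70 and 1.41, limma adjusted p = 0.0380 and 0.0347). Of the visceral endoderm markers 8 were tested, all with positive differences, and 0 were called. Neuroectoderm markers (6 genes) summed to 12.6 to 26.1 against 8.86 to 9.92 FPKM. Primitive streak and mesoderm markers (7 genes) summed to 173 to 246 against 154 to 179 FPKM, a sum carried by Hand1 (127 to 188 against 62.9 to 97.6 FPKM). Of these 7, 5 had negative differences, and T was called lower (-1.53, limma adjusted p = 0.0158). With the population as a block in the fit, none of Tdgf1, T, Col3a1 and Fbln1 was called (limma adjusted p = 0.0564, 0.0601, 0.0613 and 0.0875). Erythroid markers (5 genes) were high in population C, at 607 FPKM in its oxidized and 614 FPKM in its reduced library, against 29.3 to 81.2 FPKM elsewhere. Endothelial markers (4 genes) summed to 7.14 to 8.26 against 8.58 to 9.86 FPKM, with Pecam1 at -0.51 and Tek at 0.45 (adjusted p = 0.160 and 0.204). Of 3 white blood cell markers Ptprc was listed at 0 in every library and Csf1r had a mean of 0.0162 FPKM. Cd68, the only 1 tested, stood at 4.65 to 11.0 FPKM in oxidized and 9.43 to 15.8 FPKM in reduced libraries (-0.50, limma adjusted p = 0.390). The part of these cell types in the values below was not tested, and in bulk RNA fewer cells of a type and less RNA per cell cannot be told apart.

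No amino acid transporter passed the test between oxidized and reduced cells. With limma, 0 of 18 tested transporters had an adjusted p under 0.05, where 0.796% of 12191 tested genes did (0.517% higher and 0.279% lower in oxidized cells). The 63 higher and 34 lower calls over all genes were 58 and 50 with median-ratio scaling and 54 and 51 with quantile normalization. At an unadjusted p under 0.05 there were 4, all higher in oxidized cells: Slc6a6, Slc6a8, Slc7a6 and Slc38a4 (19.4% of all tested genes had such a p, 13.5% in the higher and 5.93% in the lower direction). By the authors' deposited table none of the 53 members, and so none of the 19 tested, had a q under 0.05. Of the 12191 tested genes 5.51% did. Of the 19 tested members 8 had a p under 0.05 in the authors' deposited table, where 21.2% of the tested genes did. Oxidized and reduced libraries did not overlap for 7 of 18 transporters, 4 higher and 3 lower in oxidized cells, where 25.0% of all tested genes did not overlap, 16.2% higher and 8.81% lower. For 11 of 18 the oxidized library lay on the same side of the reduced one in all 3 populations, as for 43.3% of all tested genes.

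Differences in log2(FPKM + 1), oxidized minus reduced, ran from -0.62 for Slc7a7 to 0.63 for Slc6a8. With a pseudocount of 0.1 the lowest was Slc6a15 at -0.82, against -0.66 for Slc7a7. Of the 18, 6 were positive and 12 negative (33.3% positive, against 59.3% of all tested genes), with a median of -0.19 against 0.08 over all tested genes. That median was not alike in the populations: it was -0.30 within A, 0.07 within B and 0.02 within C. Without the oxidized libraries A and B, which leaves oxidized C as the only oxidized library, it was 0.05. On the log2(FPKM + 1) scale the 95% interval of the difference lay between -1 and 1 for 14 of 18. It reached past those bounds for Slc6a6, Slc6a8, Slc7a3 and Slc7a7. This scale understates fold changes of low genes. For genes between 1 and 5 FPKM an interval within these bounds therefore need not exclude a 2-fold change.

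**Figure D1:**
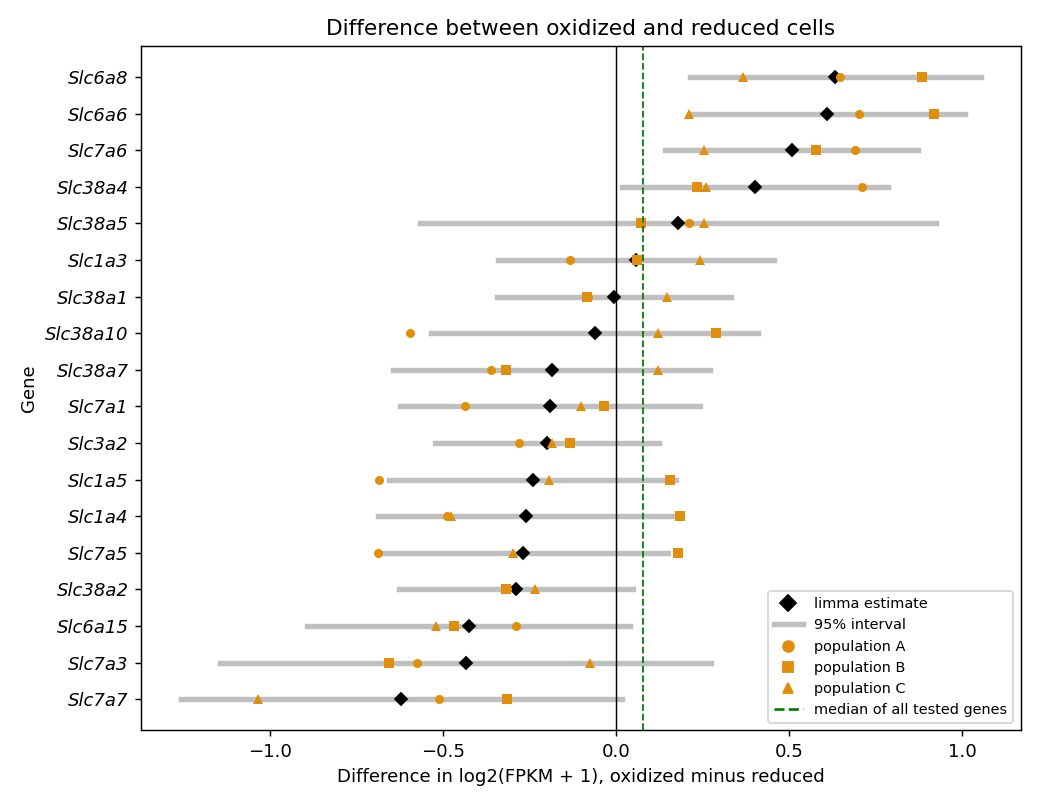
Difference in log2(FPKM + 1) between oxidized and reduced cells (x axis) for the 18 transporters at a mean of 1 FPKM or more (y axis). Diamonds are limma estimates, grey bars their 95% intervals, orange symbols the difference within each population and the dashed line the median of all tested genes; Slc6a8, Slc6a6, Slc7a6 and Slc38a4 lie to the right of 0 with their whole interval.

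The summed transporter transcripts did not separate the groups. The 52 transporters summed to 387, 401 and 375 FPKM in the A, B and C oxidized libraries and to 392, 382 and 384 FPKM in reduced A, B and C, so the groups overlapped. A few genes made up much of that sum: Slc3a2 made up 25.0% of it, Slc38a4 24.2% and Slc7a5 11.0%. FPKM values are per transcript length, so levels can be set beside each other between genes. Of the 18, 13 had a mean of 5 FPKM or more, and Slc38a5, Slc6a8, Slc1a3, Slc7a1 and Slc6a15 lay between 1 and 5 FPKM.

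**Figure D2:**
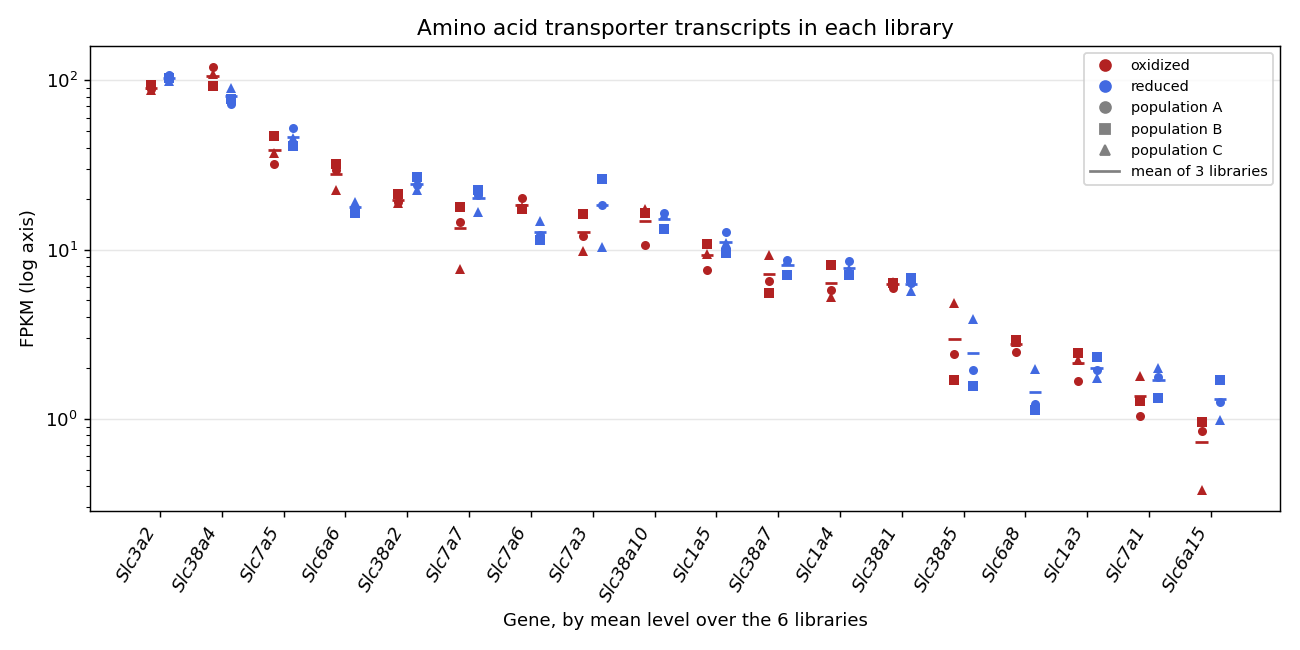
FPKM (log axis) of the 18 transporters in each of the 6 libraries, ordered by mean level. Red points are oxidized and blue points reduced libraries, the symbol gives the population and lines are means of 3 libraries; Slc3a2 and Slc38a4 lie between 72.7 and 119.7 FPKM.

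The heavy chain Slc3a2 (chr19:8706882-8723369, minus strand, GRCm38) had the highest mean over all 6 libraries, although Slc38a4 was above it in oxidized A and C. It stood at 88.2, 93.9 and 87.5 FPKM in the A, B and C oxidized libraries and at 107, 103 and 99.4 FPKM in reduced A, B and C. Every oxidized library was below every reduced one, by a small margin. The means were 89.8 ± 3.50 and 103 ± 3.99 FPKM (SD, n = 3 each), a log2 difference of -0.20 (SE 0.14, adjusted p = 0.461). The other heavy chain, Slc3a1, the partner of Slc7a9 in kidney and gut, was listed at 0 in every reduced library and in oxidized B, and Slc7a9 had a mean of 0.279 FPKM.

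Slc7a5 (LAT1, chr8:121881150-121907694, minus strand), which takes up large neutral amino acids such as leucine in exchange for glutamine, was the most abundant light chain. Its level was 32.2, 46.7 and 37.0 FPKM in oxidized and 52.4, 41.1 and 45.7 FPKM in reduced A, B and C. The groups overlapped, with oxidized B above reduced B. The log2 difference was -0.27 (95% interval -0.68 to 0.15, adjusted p = 0.444). The ratio of Slc3a2 to Slc7a5 was 2.37 ± 0.366 in oxidized and 2.24 ± 0.236 in reduced libraries (n = 3 each), within the spread.

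The light chains Slc7a6 and Slc7a7 form the paired y+L exchangers, which release basic amino acids such as arginine in exchange for neutral ones and sodium. Their estimates had opposite signs, and neither passed the test. Slc7a6 (chr8:106168857-106198706, plus strand) stood at 20.2, 17.4 and 17.8 FPKM in oxidized and 12.1, 11.3 and 14.7 FPKM in reduced A, B and C. All oxidized libraries were above all reduced ones, with a log2 difference of 0.51 (SE 0.16, adjusted p = 0.152). Slc7a7 (chr14:54369442-54417780, minus strand) stood at 14.5, 17.8 and 7.64 FPKM in oxidized and 21.0, 22.4 and 16.7 FPKM in reduced A, B and C. Oxidized was below reduced in each population, most in C, while oxidized B overlapped reduced C. The log2 difference of Slc7a7 was -0.62 (SE 0.28, adjusted p = 0.268). It was -0.29 without oxidized C and -1.27 without oxidized A and B (adjusted p = 0.378 and 0.114). Of the exon bases of Slc7a7, 7.00% lie opposite exons of Oxa1l, at 20.4 against 16.3 FPKM, so its value may hold fragments of that gene if strand was not used in counting.

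Within each library the ratio of Slc7a6 to Slc7a7 was 1.40, 0.974 and 2.33 in oxidized A, B and C and 0.577, 0.505 and 0.884 in reduced A, B and C. It was higher in the oxidized library of each population, and the groups did not overlap. This ratio was chosen after the values were seen and is a description with no test. The sum of Slc7a5, Slc7a6, Slc7a7, Slc7a8 and Slc7a10, the light chains of Slc3a2 among the members, kept a like proportion to the heavy chain: Slc3a2 over that sum was 1.28 ± 0.132 in oxidized and 1.30 ± 0.0637 in reduced libraries.

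**Figure D3:**
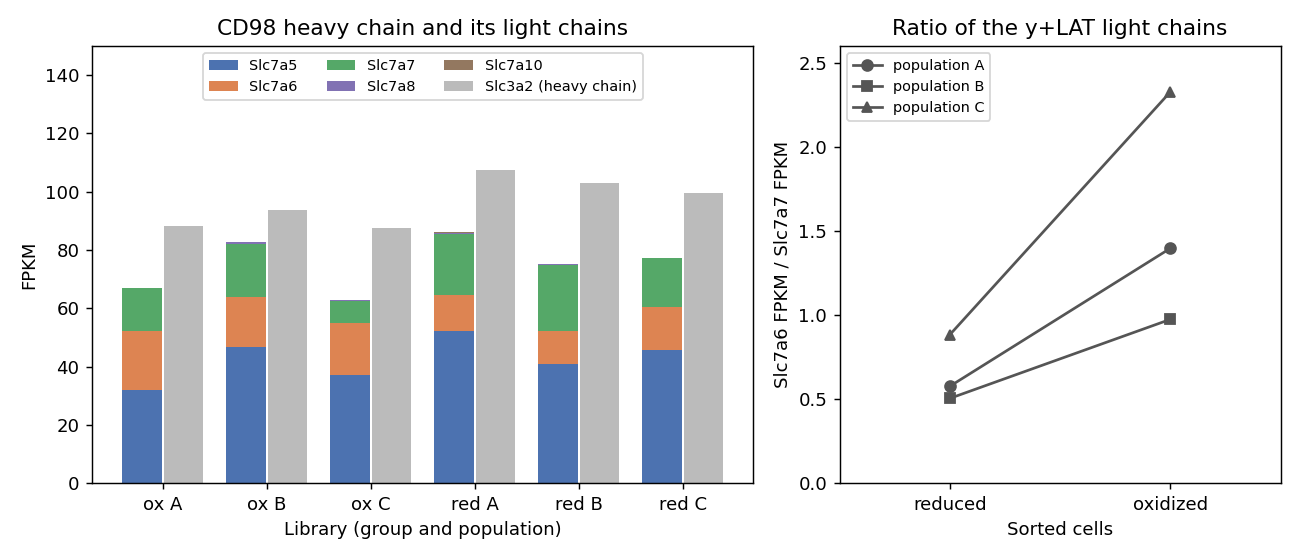
Left, FPKM of the light chains (stacked bars) and of the heavy chain Slc3a2 (grey bars) in each library; right, the ratio of Slc7a6 to Slc7a7 FPKM in reduced and oxidized cells, 1 line per population. The ratio lies between 0.505 and 0.884 in reduced and between 0.974 and 2.33 in oxidized libraries.

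Slc7a6os, the neighbour that starts from the opposite strand past the end of Slc7a6 and shares no exon base with it, had a like difference. It stood at 11.9, 14.8 and 8.03 FPKM in oxidized and 6.97, 7.43 and 8.15 FPKM in reduced A, B and C, so A and B were higher and C was not. Its log2 difference was 0.53 (limma adjusted p = 0.231), and 0.75 without oxidized C (limma adjusted p = 0.0328). The fit without oxidized C called 884 genes higher and 301 lower of 12191. Slc7a6os is a nuclear import factor gene and is left out of the transporter counts.

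The uptake carriers of arginine and lysine had negative differences. Slc7a3 (CAT3) was their main member, at 12.0, 16.1 and 9.79 FPKM in oxidized and 18.4, 26.0 and 10.4 FPKM in reduced A, B and C. Its level varied as much between populations as between groups and was lowest in C in both. The log2 difference was -0.43 (95% interval -1.14 to 0.27, adjusted p = 0.463), and it ran from -0.15 without reduced B to -0.77 without reduced C. Slc7a1 (CAT1), the widespread carrier of this branch, was at 1.37 ± 0.387 against 1.69 ± 0.341 FPKM (adjusted p = 0.604). The other members of the branch, Slc7a2, Slc7a4 and Slc7a14, had means below 1 FPKM.

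Of the Slc1 family, the neutral exchangers Slc1a5 (ASCT2, a carrier of glutamine) and Slc1a4 (ASCT1, a carrier of serine, alanine and cysteine) followed Slc7a5 in their pattern over populations. Slc1a5 stood at 7.53, 10.8 and 9.46 FPKM in oxidized and 12.7, 9.58 and 10.95 FPKM in reduced A, B and C. Slc1a4 stood at 5.78, 8.14 and 5.22 FPKM in oxidized and 8.52, 7.04 and 7.67 FPKM in reduced A, B and C. For both, oxidized was below reduced in A and C and above it in B. The ratio of oxidized to reduced FPKM was 0.593, 1.13 and 0.864 for Slc1a5, 0.679, 1.16 and 0.681 for Slc1a4 and 0.614, 1.14 and 0.811 for Slc7a5 in A, B and C. The log2 differences were -0.24 for Slc1a5 (adjusted p = 0.486) and -0.26 for Slc1a4 (adjusted p = 0.464). Among the glutamate carriers of this family only Slc1a3 (GLAST) reached a mean of 1 FPKM, at 2.12 ± 0.400 against 1.99 ± 0.291 FPKM, a difference of 0.06 that was -0.01 with median-ratio scaling and -0.02 with quantile normalization.

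The Slc6 family held the largest positive differences. Slc6a6, the taurine carrier (chr6:91684053-91759066, plus strand), stood at 29.4, 31.8 and 22.3 FPKM in oxidized and 17.7, 16.4 and 19.1 FPKM in reduced A, B and C. All oxidized libraries were above all reduced ones, with population C having the smallest gap. The means were 27.8 ± 4.93 and 17.7 ± 1.38 FPKM (log2 difference 0.61, SE 0.17, adjusted p = 0.129). Without oxidized C the log2 difference of Slc6a6 was 0.76 and passed the test (limma adjusted p = 0.0252). That fit called 884 genes higher and 301 lower of 12191, against 63 and 34 with all 6 libraries. Its oxidized libraries, A and B, are those that stood apart above. Without the oxidized libraries A and B the log2 difference of Slc6a6 was 0.32. Taurine is an osmolyte made from cysteine, and this gene was the only transporter called in any of the alternatives run.

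Slc6a8, the creatine carrier (chrX:73673150-73682502, plus strand), stood at 2.48, 2.94 and 2.84 FPKM in oxidized and 1.22, 1.13 and 1.98 FPKM in reduced A, B and C. The groups did not overlap, and oxidized was above reduced in each population. The means were 2.75 ± 0.244 and 1.44 ± 0.465 FPKM, a ratio of 1.91 (log2 difference 0.63, SE 0.18, adjusted p = 0.133). Slc6a15, a carrier of proline and branched-chain amino acids (chr10:103367783-103419377, plus strand), went the other way. It stood at 0.843, 0.951 and 0.381 FPKM in oxidized and 1.25, 1.70 and 0.981 FPKM in reduced A, B and C, so the groups did not overlap by a narrow margin at a low level. Its log2 difference was -0.43 (SE 0.20, adjusted p = 0.294), on a scale that understates changes of low genes. The other 18 genes of the family, which include the carriers of GABA, glycine and monoamines, had means below 1 FPKM.

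The Slc38 family carries small neutral amino acids such as alanine and glutamine with sodium. Slc38a4 (SNAT4, chr15:96994820-97055956, minus strand), an imprinted gene expressed from the paternal copy, was its most abundant member. It stood at 119.7, 91.9 and 108 FPKM in oxidized and 72.7, 77.9 and 90.3 FPKM in reduced A, B and C. The groups did not overlap, although oxidized B and reduced C were close. The means were 107 ± 14.0 and 80.3 ± 9.05 FPKM (log2 difference 0.40, SE 0.17, adjusted p = 0.240).

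Slc38a2 (SNAT2, chr15:96687392-96699730, minus strand), the member of the family best known to be induced when amino acids are short, went the other way. It stood at 19.0, 21.3 and 18.9 FPKM in oxidized and 23.9, 26.7 and 22.3 FPKM in reduced A, B and C. The oxidized level was below the reduced one in all 3 populations, at ratios of 0.796, 0.796 and 0.844 in A, B and C, and the groups did not overlap. The log2 difference was -0.29 (SE 0.15, adjusted p = 0.320). The ratio of Slc38a4 to Slc38a2 in a library, chosen after the values were seen, was 6.29, 4.32 and 5.75 in oxidized and 3.04, 2.92 and 4.04 in reduced A, B and C.

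Slc38a5 (SNAT5, a carrier of glutamine and histidine) differed by population more than by redox state. It stood at 2.40, 1.70 and 4.80 FPKM in oxidized and 1.94, 1.57 and 3.87 FPKM in reduced A, B and C, highest in C in both groups, as were the erythroid markers. The log2 difference was 0.18 (95% interval -0.57 to 0.92, adjusted p = 0.789). Slc38a10, Slc38a7, which exports glutamine from lysosomes, and Slc38a1 had differences of -0.06, -0.19 and -0.00477, with adjusted p-values from 0.636 to 0.989. Slc38a9, the lysosomal arginine sensor of mTORC1, had a mean of 0.658 FPKM.

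**Figure D4:**
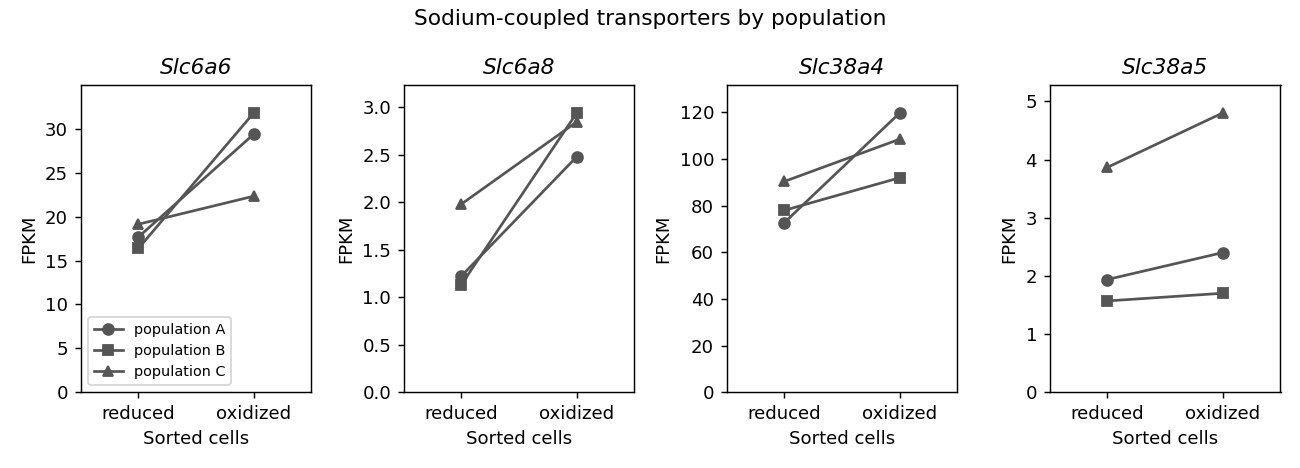
FPKM of Slc6a6, Slc6a8, Slc38a4 and Slc38a5 in reduced and oxidized cells, 1 line per population. Slc6a6, Slc6a8 and Slc38a4 are higher in every oxidized library than in any reduced one, while Slc38a5 is set apart by population C, at 4.80 and 3.87 FPKM.

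The remaining 34 members had means from 0 to 0.842 FPKM, 23 of them below 0.1 FPKM, and 20 were listed at 0 in at least 1 library. Only Slc6a18 was listed at 0 in all of them. Slc1a6 (1.20 FPKM in oxidized A), Slc38a3 (1.37 FPKM in oxidized B and 1.02 FPKM in reduced A) and Slc6a9 (1.07 FPKM in oxidized C) reached 1 FPKM in a library. The GABA and taurine carrier Slc6a13, chosen after its values were seen, stood at 0.261, 0.629 and 0.601 FPKM in oxidized and 0.0608, 0.210 and 0.146 FPKM in reduced A, B and C. It was too low for the test.

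Promoter sequence was taken from RefSeq (GRCm38.p6), which held 11 of the 18 transporters; Slc1a5, Slc38a1, Slc6a15, Slc6a6, Slc6a8, Slc7a3 and Slc7a5 had no entry. The motif TTGCATCA, the core of the composite element bound by ATF4, was found on either strand in Slc1a4 and Slc7a7. These are 2 of the 11 genes, and 3 of the 19 promoters of the 11 genes held the motif. It was found in 1.03% of all 27025 genes with a promoter entry and in 0.895% of their 32851 promoters of the same length (250 bases before to 50 after the start site). The motif TGACNNNGC, the core of the antioxidant response element, was found in Slc38a2, Slc7a1 and Slc7a6, 3 of the 11 genes and 4 of the 19 promoters. It was found in 14.0% of all genes and in 12.4% of all promoters. Overlapping promoters of Slc7a7 share the same TTGCATCA site, and those of Slc7a6 the same TGACNNNGC site. The promoter counts therefore hold these sites more than once, and the gene counts do not. The stretches below run from 150 bases before to 20 bases after the start site, 5′ to 3′ on the gene's strand, with the match in capitals. They are shown as the matches of the genes with per-library values above: TTGCATCA in the first pair and TGACNNNGC in the last pair. Slc7a1, given by its means only, is not printed. A match is a description of these letters and not a binding site.
Slc1a4 (chr11:20332694-20332863, minus strand): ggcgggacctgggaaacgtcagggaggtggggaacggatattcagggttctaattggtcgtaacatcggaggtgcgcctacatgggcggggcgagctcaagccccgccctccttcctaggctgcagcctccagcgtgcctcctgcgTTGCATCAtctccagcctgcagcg
Slc7a7 (chr14:54417925-54418094, minus strand): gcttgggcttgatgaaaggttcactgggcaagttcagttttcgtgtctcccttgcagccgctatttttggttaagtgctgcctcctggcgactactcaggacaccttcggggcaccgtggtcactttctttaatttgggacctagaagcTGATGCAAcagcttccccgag
Slc7a6 (chr8:106168704-106168873, plus strand): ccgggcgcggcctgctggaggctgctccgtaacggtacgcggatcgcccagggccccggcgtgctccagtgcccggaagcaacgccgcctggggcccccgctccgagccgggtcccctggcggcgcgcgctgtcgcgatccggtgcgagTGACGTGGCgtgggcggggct
Slc38a2 (chr15:96699709-96699878, minus strand): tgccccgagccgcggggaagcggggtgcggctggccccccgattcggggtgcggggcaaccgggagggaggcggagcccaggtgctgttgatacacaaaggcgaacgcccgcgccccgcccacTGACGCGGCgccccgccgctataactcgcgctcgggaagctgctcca

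Both genes with TTGCATCA, Slc1a4 and Slc7a7, had negative differences (-0.26 and -0.62), and the 3 genes with TGACNNNGC had differences of -0.29, -0.19 and 0.51 (Slc38a2, Slc7a1 and Slc7a6). None of these passed the test.

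Other genes of amino acid handling were counted by lists. For comparison, 0.796% of all 12191 tested genes were called. At an unadjusted limma p under 0.05, 13.5% of them were higher and 5.93% lower. Of the response to amino acid shortage, 12 of 13 genes in the table were tested and 0 were called, with 1 higher and 2 lower at an unadjusted p under 0.05 and a median log2 difference of -0.06. Asns, the asparagine synthetase gene and its most abundant member, stood at 145, 134 and 120.5 FPKM in oxidized and 298, 229.6 and 204 FPKM in reduced A, B and C. The groups did not overlap (log2 difference -0.86, SE 0.19, adjusted p = 0.0780). The mRNA of Atf4 itself stood at 43.8, 47.3 and 30.6 FPKM in oxidized and 20.8, 22.7 and 22.6 FPKM in reduced A, B and C, the opposite direction (log2 difference 0.83, adjusted p = 0.0864). Without oxidized C both passed the test, Asns at -0.79 (limma adjusted p = 0.0400) and Atf4 at 1.01 (limma adjusted p = 0.00690). That fit called 884 genes higher and 301 lower of 12191, against 63 and 34 with all 6 libraries. With oxidized C as the only oxidized library Asns was at -0.99 and Atf4 at 0.46. Atf4 and the unfolded protein response gene Ddit3, at 8.13 ± 0.431 against 13.6 ± 2.52 FPKM (adjusted p = 0.111), fall outside the naming rule and were chosen after their values were seen.

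Of the genes by which mTORC1 senses amino acids, 29 of 30 were tested and 0 were called, with 0 higher and 1 lower (Mtor) at an unadjusted p under 0.05 and a median of -0.06. The most abundant, Sec13, was at 129.8 ± 20.7 against 127.6 ± 8.76 FPKM. Of mitochondrial amino acid carriers 9 of 12 were tested and 0 were called, with 1 higher (Slc25a44, a carrier of branched-chain amino acids) and 0 lower at that p, and a median of -0.04. The most abundant, the aspartate-glutamate carrier Slc25a13, was at 29.3 ± 7.80 against 35.0 ± 4.81 FPKM. Of other plasma membrane and lysosomal carriers 7 of 19 were tested and 0 were called. Each of the 7, which include Slc7a11, was higher in oxidized cells by its estimate (median 0.17). Over all tested genes 59.3% were positive, with a median of 0.08, and 0.796% were called. At an unadjusted limma p under 0.05, 13.5% of all tested genes were higher and 5.93% lower. Among the 7, 1 had an unadjusted p under 0.05, Slc43a1 (LAT3), at 7.70 ± 0.737 against 4.70 ± 0.786 FPKM (adjusted p = 0.122). The highest of them by mean over all 6 libraries, the lysosomal basic amino acid exporter Pqlc2, was at 7.44 ± 1.35 against 6.49 ± 0.943 FPKM. Slc7a11, the cystine exchanger that also pairs with Slc3a2, was at 1.53, 0.702 and 1.82 FPKM in oxidized and 0.476, 0.220 and 1.39 FPKM in reduced A, B and C (adjusted p = 0.370).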

How the data were processed

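Per the file headers, the deposited values are FPKM, 1 column per library, over 31265 genes. HISAT2, StringTie, cutadapt, FastQC, edgeR and mm10 are named, with no version, in the submitters' processing notes. Strand use and the treatment of fragments that match several places are not given in the sources used here. In the same table the authors' deposited fold, log2, p-value and q-value columns hold their own comparison, whose test the file headers do not name.

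FPKM values are not counts, and low values fell within 2% of whole steps for only 21.2% to 23.8%, so no count test was run; the step gives the estimated depth. Genes whose mean reached 1 FPKM were fitted as log2(FPKM + 1) with limma 3.58.1 in R 4.3.3 (group only, eBayes with a mean-variance trend). Tests were two-sided, with Benjamini-Hochberg adjustment over 12191 genes and a threshold of 0.05. Adjusted p-values come from this fit to all 6 libraries. Those said to be without named libraries come from the same model fitted to the remaining ones. The code was tested on simulated data. The ratio of oxidized to reduced given for Slc6a8 is of mean FPKM. Ratios given for A, B and C are of single libraries. Ratios between genes were taken within a library, and those with ± are the mean and SD of such values. Named genes are all members at 1 FPKM or more, members that reach it in a library and, from each list, called genes and the most abundant gene; Atf4, Ddit3, Mtor, Slc25a44, Slc43a1, Slc7a11, the single marker genes and, among lower members, Slc38a9, Slc7a9, Slc3a1, Slc6a13, Slc7a2, Slc7a4 and Slc7a14 fall outside this rule and were chosen after their values were seen. Members, lists and tests were chosen with earlier results of these data known.

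The letters A, B and C pair the libraries, since the series' design text has both sorts made from each population. Deviations from group means correlated within a letter at r = -0.06, 0.07 and 0.20, and between letters at r = -0.17 to 0.13. Only for C was the correlation within the letter the highest. Alternatives were the population as a block, median-ratio and quantile scaling, no trend, other filters, another pseudocount and leaving out each library. Omitting oxidized A and B together was added after seeing the data. Locations come from GENCODE vM21 (GRCm38), which held all 53 IDs. In the 19 tested members, at most 5.25% of 50-base stretches (Slc7a7) occur in transcripts of other genes.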

Additional observations from a re-analysis of the deposited data

How the results depend on the processing

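With the population as a replicate block no member was called, while calls over all genes were 2 higher and 2 lower instead of 63 and 34; the block changed no call among transporters or related lists. Calls over all genes were 1 higher and 0 lower with no filter, 21 lower at a mean of at least 5 FPKM, and 3 higher and 1 lower without the oxidized libraries A and B. Leaving out 1 library gave 1 to 884 higher and 2 to 301 lower calls over all genes, (884 and 301 without oxidized C, 20 lower without reduced C, and 1 or 2 in each direction without any other library), 0 to 1 higher transporter (Slc6a6, without oxidized C), 0 to 1 higher and 0 to 1 lower related gene, and a transporter median from -0.18 to -0.10. That median was 0.0495 without the oxidized libraries A and B. Of 19 tested members, 13 kept their direction in all 14 alternatives where they could be fitted. Slc1a3 turned to -0.0058 with median-ratio scaling and -0.0202 with quantile normalization. Without the oxidized libraries A and B, Slc38a1 was 0.0379, Slc38a10 0.19, Slc38a7 0.19 and Slc7a1 0.0611. Leaving out 1 library ranged from -0.0195 to 0.16 for Slc1a3, -0.0601 to 0.0424 for Slc38a1, -0.19 to 0.15 for Slc38a10 and -0.13 to 0.45 for Slc38a5. Without a change of direction it ranged from -0.35 to -0.11 for Slc1a5, -0.42 to -0.15 for Slc1a4, -0.41 to -0.15 for Slc7a5, -0.37 to -0.04 for Slc38a7, -0.32 to -0.09 for Slc7a1, -0.53 to -0.27 for Slc6a15, -0.86 to -0.29 for Slc7a7 and -0.77 to -0.15 for Slc7a3. The cause was not tested.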
